A study of Mus musculus with 7 samples.

Results

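Dendritic cell lineage transcription factors are the DNA-binding proteins, and their inhibitors, that decide which kind of dendritic cell a precursor becomes and keep that identity afterwards. The 10 genes described are Batf, Batf2, Batf3, Id2, Zeb2, Klf4, Zbtb46, Nfil3, Bcl6 and Spi1, out of 19939 genes measured by a probeset of their own. They were chosen by name from the platform's gene symbols, and each had exactly 1 such probeset. The data are 7 arrays (Affymetrix Mouse Gene 1.0 ST), each holding RNA of lung CD11b+ conventional dendritic cells (cDC2s) pooled from 10 female mice on a C57Bl/6 background. The cells were sorted as CD11c+ MHC-II+ CD11b+ and negative for Ly6C and CD64. In the group "WT PBS" (2 arrays) wild type mice had received saline, in "WT HDM" (2 arrays) wild type mice had received 100 µg of house dust mite extract, an allergen mixture that also carries microbial products, and in "Irf3 HDM" (3 arrays) Irf3-deficient mice had received the same dose. Cells were taken 12 hours later in all groups. The product of Irf3 drives transcription of type I interferons after microbial sensing. How the Irf3 allele was made is not given in the sources used here, and saline-treated Irf3-deficient cells are not analysed here, so an effect of the genotype alone cannot be told apart from a different response to the extract.

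These factors work as a network. PU.1 (Spi1) opens myeloid enhancers, and the inhibitor ID2 holds back the E proteins that drive plasmacytoid dendritic cells. NFIL3, BCL6 and BATF3 act in the cDC1 branch, whereas ZEB2 and KLF4 act in the cDC2 and monocyte-related branches. ZBTB46 marks conventional dendritic cells and their committed precursors. BATF proteins carry a leucine zipper but no activation domain of their own. They pair with JUN proteins and bind beside IRF4 or IRF8.

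Of the 10 genes, 5 differed between the 3 groups (Batf2, Zeb2, Klf4, Zbtb46 and Spi1; F test of the limma fit with Benjamini-Hochberg adjustment over all genes, adjusted p under 0.05), which is 50% of the members against 25.5% of all genes. All 10 members were brighter than the median probeset, and the share passing the F test among such genes was not computed. In wild type cells the extract raised Batf2 and Zbtb46 and lowered Zeb2 and Klf4. In treated Irf3-deficient cells the same 4 genes differed from treated wild type in the opposite direction, and none of the 4 passed the test against untreated wild type cells. These comparisons share arrays, so a high or low value on the WT HDM arrays enters the first and the second with opposite signs. Spi1 passed in the third comparison alone, and Batf, Batf3, Id2, Nfil3 and Bcl6 passed in none.

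Read against all genes, 4 of 10 members passed in wild type cells, 2 higher and 2 lower, against 17.6% of all genes (8.35% higher and 9.23% lower). Between the treated genotypes 4 of 10 passed, again 2 in each direction, against 19.7% of genes (10.7% higher and 9% lower). Treated Irf3-deficient and untreated wild type cells differed in 1 of 10, which was higher, against 10.8% of genes (5.89% higher and 4.9% lower). Brightness matters for this reading, because all 10 members were brighter than the median probeset. Such genes were called more often, at 28.5%, 32.6% and 17.9% in the 3 comparisons, so no excess among the members is read from these counts. Groups did not overlap for 9 members in the first comparison (6 higher, 3 lower), against 52.6% of all genes (28.5% higher, 24.1% lower). They did not overlap for 9 in the second (3 higher, 6 lower), against 43.7% (23.2% higher, 20.5% lower), and for 6 in the third (3 in each direction), against 39.1% (22% higher, 17% lower). The median size of the log2 difference was 0.22, 0.30 and 0.17 for the members and 0.14, 0.12 and 0.12 for all genes.

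Every member was brighter on average than the median probeset, which stood at 7.64 on the log2 scale, and their SD within groups ran from 0.027 (Klf4) to 0.23 (Batf2). Irf3 itself stood between 9.48 and 9.59 on the 4 wild type arrays and between 8.13 and 8.30 on the 3 Irf3-deficient ones, in accord with their labels. The gate genes Itgax (CD11c) and H2-Ab1 (MHC class II) ranked at 98.9% and 99.9% of genes in brightness. The cells were sorted on these proteins, so their ranks do not test the labelled cell type. Fcgr1, which encodes CD64, a protein the sort excluded, ranked at 74.5%. The 12 cDC2 markers ranked from 26.5% to 99.8% and the 12 cDC1 markers from 40.6% to 99.7%. Genes of other cells were measured too. The 11 lymphocyte markers ranked from 10.4% to 64% (Cd4) and the 11 granulocyte markers from 5.8% to 57% (Csf3r). The 16 monocyte and macrophage markers ranked from 47.5% to 99.2% (C1qb) and the 11 lung epithelial and stromal markers from 57.4% to 98% (Sftpc). Nothing in the labels says whether the pools of a group were sorted on separate days, so the p-values measure the spread between these pools only.

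**Figure D1:**
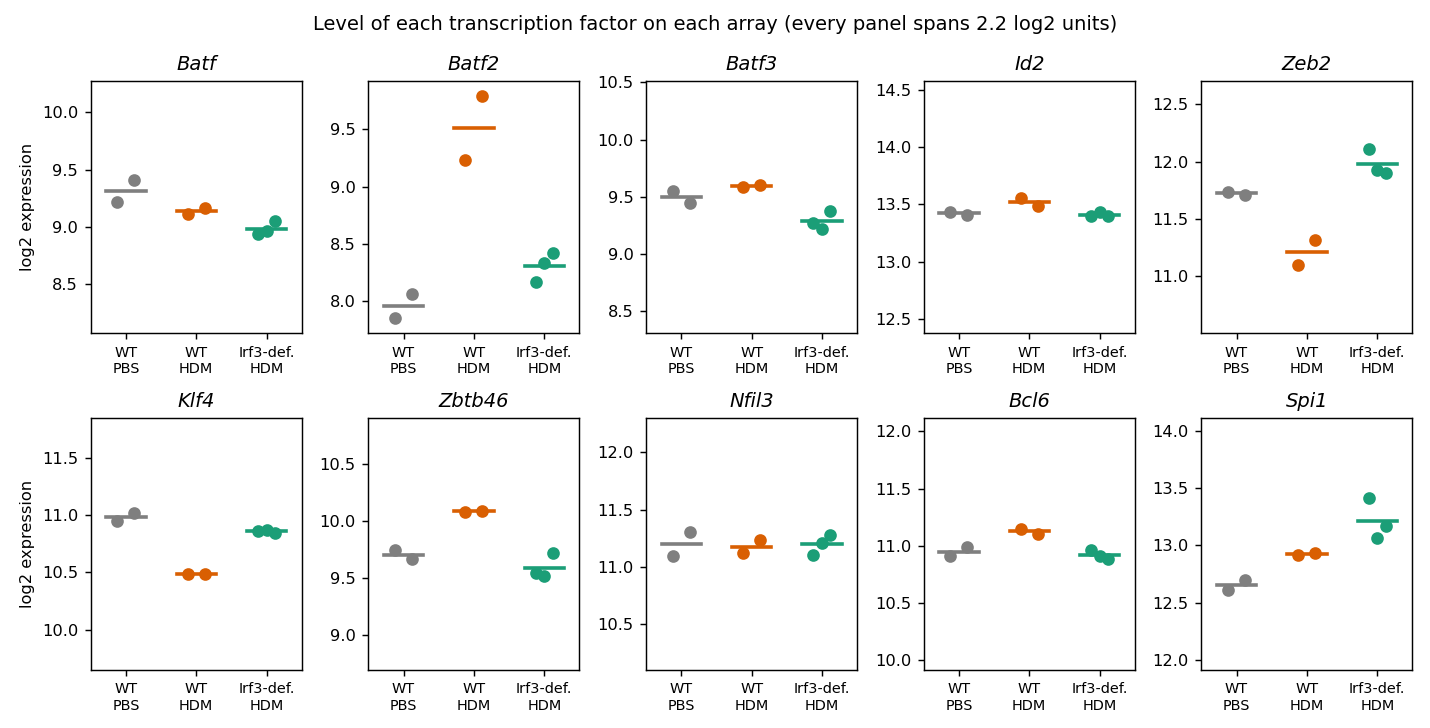
Log2 expression (vertical axis) of the 10 transcription factors on each of the 7 arrays, grouped as wild type saline (WT PBS), wild type house dust mite (WT HDM) and Irf3-deficient house dust mite (horizontal axis). Points are arrays and bars are group means; every panel spans the same number of log2 units, so distances can be compared between panels but heights cannot. Batf2 rose to 9.23 and 9.79 in WT HDM, Zeb2 and Klf4 were lowest there, and Nfil3 overlapped in all groups.

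In the BATF family only Batf2, an interferon-inducible member that can stand in for BATF3 in dendritic cells, passed a test. Its log2 level was 7.85 and 8.06 in WT PBS, 9.23 and 9.79 in WT HDM, and 8.16, 8.33 and 8.42 in Irf3 HDM. All treated wild type arrays lay above all others, and the Irf3-deficient arrays lay above the untreated ones without overlap. Batf2 rose 2.93-fold with the extract in wild type cells (95% CI 2.27 to 3.77; log2 change 1.55 ± 0.17, SE; adjusted p = 3.5e-05 in limma). It was 2.30-fold lower in treated Irf3-deficient than in treated wild type cells (1.83 to 2.91; adjusted p = 0.000144). Against untreated wild type the Irf3-deficient level differed by 0.35 (95% CI 0.01 to 0.68), which did not pass (adjusted p = 0.202).

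Batf, best known for T helper cell and B cell differentiation, stood at 9.22 and 9.41 in WT PBS, 9.12 and 9.17 in WT HDM, and 8.93, 8.96 and 9.05 in Irf3 HDM. The 3 groups were ordered without overlap, but no difference passed. The widest, between Irf3-deficient treated and untreated wild type cells, was -0.33 ± 0.11 (SE; adjusted p = 0.0712 in limma). Batf3, the factor that cDC1s require, stood at 9.55 and 9.45, then 9.59 and 9.60, then 9.27, 9.22 and 9.37 in the same order of groups. Its level in WT HDM differed from that in WT PBS by 0.10 (95% CI -0.15 to 0.34). The Irf3-deficient arrays lay below every wild type array, at -0.31 ± 0.10 (SE) from treated wild type, with adjusted p = 0.0567. That value ranged from 0.0338 to 0.212 over 17 alternative analyses and passed in 2 of them. Within the family the response to the extract therefore had a 95% interval of 1.18 to 1.92 for Batf2, while those of Batf (-0.43 to 0.08) and Batf3 lay below it.

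Zeb2 encodes a zinc finger repressor that favours cDC2s and plasmacytoid cells over cDC1s. Its level was 11.74 and 11.71 in WT PBS, 11.09 and 11.32 in WT HDM, and 12.11, 11.93 and 11.90 in Irf3 HDM. No groups overlapped, and the Irf3-deficient arrays were the highest. Zeb2 fell by 0.52 ± 0.11 (SE) on the log2 scale in wild type cells (1.43-fold lower, 95% CI 1.21 to 1.70; adjusted p = 0.0064 in limma). Without replicate 1 of WT HDM the adjusted p was 0.0509, within a range of 0.00282 to 0.0509 over the alternatives. Between the treated genotypes Zeb2 was 1.71-fold higher in Irf3-deficient cells (1.46 to 1.99; adjusted p = 0.000195). Against untreated wild type the Irf3-deficient level of Zeb2 differed by 0.26 (95% CI 0.03 to 0.48), which did not pass (adjusted p = 0.152 in limma).

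Klf4, a zinc finger factor needed for a part of the cDC2 population, had the tightest replicates of the members that changed. Its level was 10.95 and 11.02 in WT PBS, 10.49 and 10.48 in WT HDM, and 10.86, 10.87 and 10.84 in Irf3 HDM. The treated wild type arrays were the lowest and the Irf3-deficient arrays lay just under the untreated ones. Klf4 fell by 0.50 ± 0.10 (SE) in wild type cells, which is 1.41-fold (95% CI 1.21 to 1.65; adjusted p = 0.00407 in limma). It was 1.29-fold higher in Irf3-deficient than in wild type treated cells (1.13 to 1.49; adjusted p = 0.0123). This second call did not pass without replicate 1 (adjusted p = 0.0524) or replicate 2 (adjusted p = 0.0665) of WT HDM, in a range of 0.00806 to 0.0665 over the alternatives, although the difference stayed between 0.37 and 0.39.

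Zeb2 and Klf4 moved in the same direction in the first and second comparisons, and 1 upstream sequence of each is shown. Each run holds the 250 bases before an annotated start, 5′ to 3′ on the gene's own strand, from RefSeq on GRCm38.p6. The Zeb2 run is chr2:45110278-45110527 on the minus strand, 1 of 4 Zeb2 windows, before an internal start that lies within the span of the gene, and the Klf4 run is chr4:55532476-55532725 on the minus strand. Capitals mark matches to the AP-1 letters TGANTCA, the element bound by FOS, JUN and BATF dimers.
Zeb2: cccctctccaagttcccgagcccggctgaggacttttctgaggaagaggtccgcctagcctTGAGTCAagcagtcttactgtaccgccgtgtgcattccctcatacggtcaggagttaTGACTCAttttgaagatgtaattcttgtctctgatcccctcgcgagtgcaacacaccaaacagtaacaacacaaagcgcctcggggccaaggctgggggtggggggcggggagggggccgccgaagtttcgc
Klf4: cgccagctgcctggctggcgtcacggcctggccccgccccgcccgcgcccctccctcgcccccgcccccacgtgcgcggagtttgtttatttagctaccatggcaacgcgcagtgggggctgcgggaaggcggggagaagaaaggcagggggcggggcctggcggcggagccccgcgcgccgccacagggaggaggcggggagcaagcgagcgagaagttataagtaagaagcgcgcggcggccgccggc
The Zeb2 run holds 2 AP-1 matches, 189 to 183 and 132 to 126 bases before that start, and the Klf4 run holds none. The other 3 Zeb2 windows hold no AP-1 match, so the printed window does not stand for the gene. Zbtb46, which differed in the opposite direction to Zeb2, has 1, at 61 to 55 bases before its annotated start. Whether that Zbtb46 start is internal too was not tested. Of 32851 such windows over all genes, 6.75% held the AP-1 letters on either strand. Another 4 motifs were searched in the same way on both strands. The STAT element TTCNNNGAA was in 7.02% of all windows and in windows of Batf3, Zeb2 and Bcl6, a gene that STAT proteins are known to control. Zeb2 has 4 windows and Bcl6 has 2, so shares of windows cannot be set against counts of genes. The 2 Zeb2 matches to the STAT element are the same bases in overlapping windows. The interferon element, GAAA, 2 bases of any kind and GAAA (2.98% of windows), the PU.1 element GAGGAAGT (2.44%) and the NF-kB element, GGGA, any base and TTTCC (0.356%), were in no window of the 8 members that had one. A match is a run of letters, not evidence of binding. Batf2 and Spi1 were matched to no window.

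Zbtb46 encodes a zinc finger repressor that marks the conventional dendritic cell lineage and is known to restrain activation of these cells. Its level was 9.74 and 9.66 in WT PBS, 10.08 and 10.09 in WT HDM, and 9.54, 9.51 and 9.72 in Irf3 HDM. The treated wild type arrays were above all others, and the Irf3-deficient and untreated arrays overlapped. Zbtb46 rose 1.30-fold with the extract in wild type (95% CI 1.09 to 1.55; adjusted p = 0.0403 in limma). That call was fragile: the adjusted p ranged from 0.0261 to 0.157 over 17 alternatives and stayed past the threshold in 8. It did not pass with the arrays centred on their medians (adjusted p = 0.0573), nor without WT PBS replicate 1 (0.0924) or 2 (0.157), WT HDM replicate 1 (0.112) or 2 (0.139), or Irf3 HDM replicate 2 (0.0656). The difference between the treated genotypes was firmer. Zbtb46 was 1.41-fold lower in Irf3-deficient cells (1.20 to 1.65; adjusted p = 0.00539) and passed in all 17 alternatives.

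Spi1 encodes PU.1, the ETS factor on which all myeloid and dendritic lineages depend. Its level was 12.61 and 12.69 in WT PBS, 12.92 and 12.93 in WT HDM, and 13.42, 13.07 and 13.17 in Irf3 HDM. The groups were ordered without overlap, with the Irf3-deficient arrays highest, and Irf3 HDM replicate 1 stood above the others of its group. Spi1 was 1.48-fold higher in treated Irf3-deficient than in untreated wild type cells (95% CI 1.27 to 1.71; adjusted p = 0.00304 in limma). Without WT PBS replicate 1 the adjusted p was 0.0562, in a range of 0.00217 to 0.0562. The steps on either side were smaller and did not pass, at 0.27 ± 0.11 for the wild type response (SE; adjusted p = 0.115) and 0.29 ± 0.10 between the treated genotypes (adjusted p = 0.0542). Each step passed in some alternatives, the first without Irf3 HDM replicate 1 (adjusted p = 0.0351, range 0.0351 to 0.383) and the second in 3 of 17 (range 0.0333 to 0.157).

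Id2, Nfil3 and Bcl6 passed in no comparison. Id2 stood at 13.44 and 13.41 in WT PBS, 13.56 and 13.48 in WT HDM, and 13.40, 13.43 and 13.40 in Irf3 HDM, a span of 0.16 over all arrays. Its response in wild type was 0.10 (95% CI -0.07 to 0.26), whose upper bound is 1.20-fold. Nfil3, a repressor that acts early in the cDC1 branch and in the circadian clock, stood between 11.10 and 11.31 on all arrays, and its groups overlapped in every comparison. The 95% intervals of its 3 differences ran from -0.27 to 0.25 in all. Bcl6, a repressor that cDC1s and germinal centre B cells need, stood at 10.91 and 10.99 in WT PBS, 11.15 and 11.10 in WT HDM, and 10.97, 10.91 and 10.89 in Irf3 HDM. Its treated wild type arrays were the highest, by 0.18 over untreated (adjusted p = 0.299 in limma) and 0.21 over Irf3-deficient cells (adjusted p = 0.164).

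**Figure D2:**
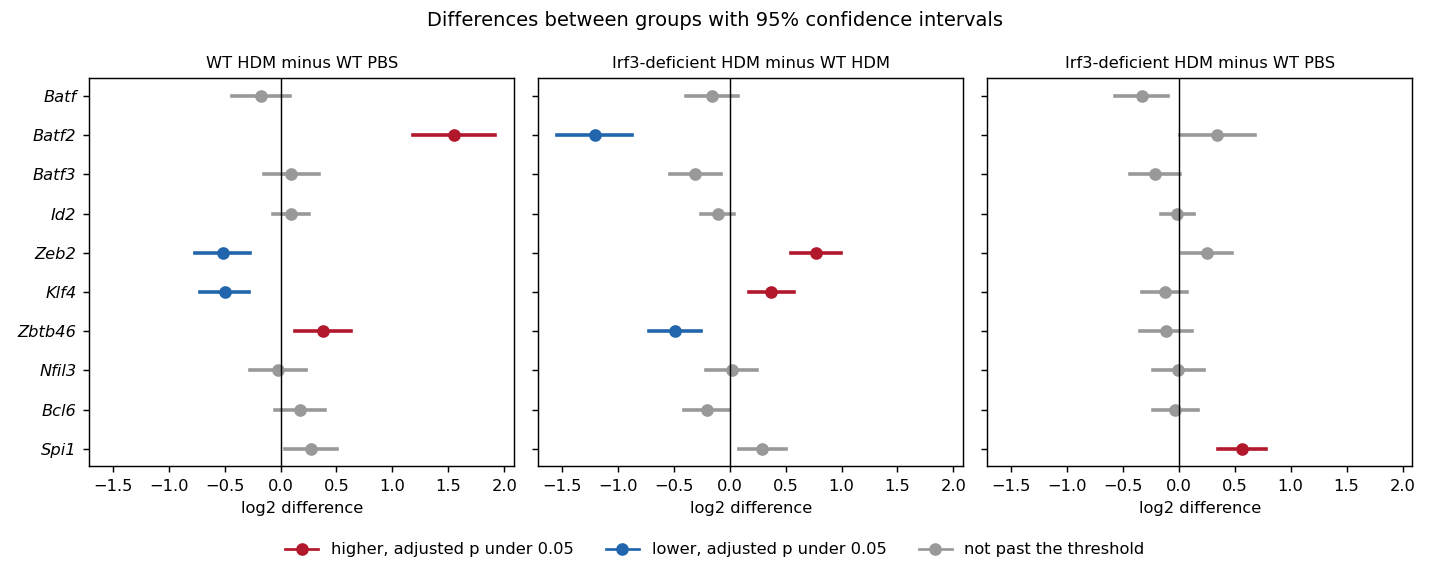
Log2 difference (horizontal axis) of each transcription factor in the 3 comparisons, with 95% confidence intervals from the limma fit; red and blue mark genes past an adjusted p of 0.05 and grey the rest. Batf2, Zeb2, Klf4 and Zbtb46 are coloured in the first and second panels with opposite signs, which share the WT HDM arrays, and Spi1 alone in the third.

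Markers of other cells differed between the groups too. Of 16 measured monocyte and macrophage markers, 13 fell and 2 rose in wild type cells (median log2 change -1.30, against 0.03 for all genes), and 11 were higher and 3 lower in Irf3-deficient than in wild type treated cells (median 0.96, against 0.0022). Adgre1 fell by 2.05 and the mannose receptor gene Mrc1 by 1.75 with the extract, and they were higher by 1.17 and 1.26 in Irf3-deficient cells. Plac8 and Fcgr1 were the 2 that rose, and both were lower in Irf3-deficient than in treated wild type cells. Plac8 stood at 9.8 and 8.9 in WT PBS, 12.2 on both WT HDM arrays, and 9.3 to 9.8 in Irf3 HDM. Apoe, the other marker lower in Irf3-deficient cells, stood at 12.9 and 13.4, then 10.9 and 11.4, then 9.9 to 10.3. The summed linear level of the 16 markers was 53883 and 64985 in WT PBS, 23386 and 32335 in WT HDM, and 43048 to 46085 in Irf3 HDM. Zeb2, Klf4 and Spi1 are known to be expressed in monocytes and macrophages as well, and the part of those cells in their values was not tested. Nor was the part of the cell mix in the values of the other members, among them Zbtb46, which was highest in WT HDM, where the marker sum was lowest. Klf4, like the marker sum, was highest in WT PBS and lowest in WT HDM. Zeb2 and Spi1 were highest in Irf3 HDM, with Zeb2 lowest in WT HDM and Spi1 lowest in WT PBS. In bulk samples, fewer cells of a type and less RNA per cell cannot be told apart. Of 11 lung epithelial and stromal markers, 7 fell and 0 rose with the extract, and their sum was 24847 and 30669 in WT PBS, 25793 and 15097 in WT HDM, and 15417 to 16788 in Irf3 HDM. The gap between the WT HDM arrays lay mostly in Scgb1a1, at 13.57 and 11.64. Klf4 is known to be expressed in epithelium too, and the part of those cells in its values was not tested. Of 8 general conventional dendritic cell markers, 1, Dpp4, rose with the extract (0 after median centring or quantile normalisation of the arrays).

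**Figure D3:**
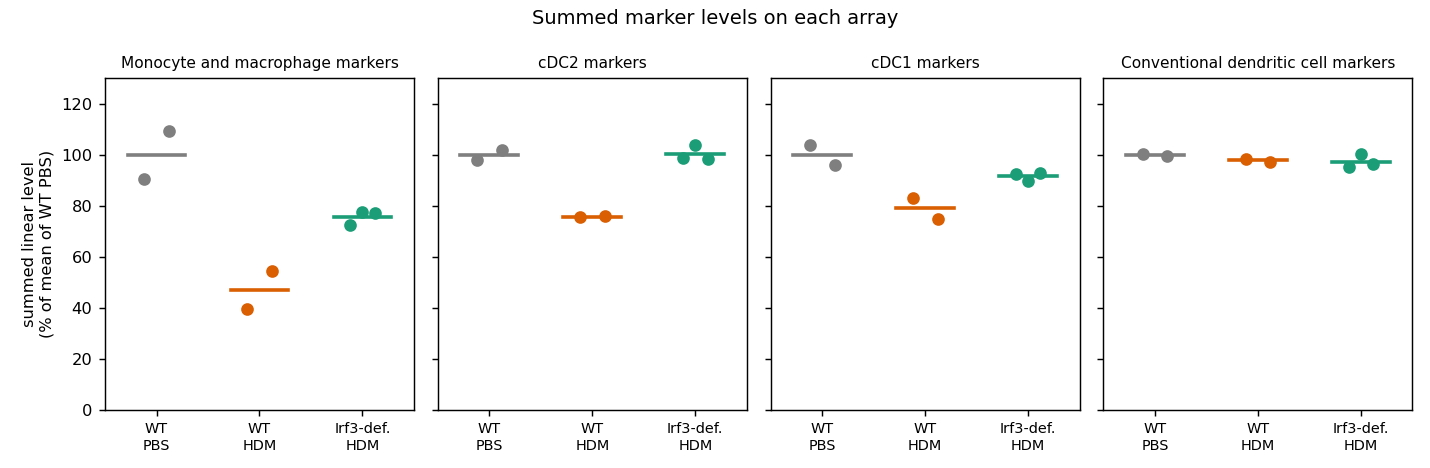
Summed linear expression of 4 marker lists on each array, as a percentage of the mean of the WT PBS arrays (vertical axis, starting at 0), by group; points are arrays and bars are group means. Monocyte and macrophage markers stood at 39.3% and 54.4% in WT HDM and at 72.4% to 77.5% in Irf3 HDM, while conventional dendritic cell markers stood between 95.2% and 100%, a sum set mostly by H2-Ab1, H2-Aa and Cd74, which are among the brightest genes and spanned at most 0.16 log2 units over the arrays.

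Genes of the cDC1 and cDC2 branches, on which these factors act, changed in both directions. Of 12 cDC2 markers, 6 fell and 2 rose in wild type cells, and 7 were higher and 2 lower in Irf3-deficient than in wild type treated cells. Most monocyte and macrophage markers moved in the same directions, and the part of those cells in these counts was not tested. Cx3cr1, which encodes a chemokine receptor, fell by 1.46, the gate gene Itgam (CD11b) fell by 1.06, and Cd7 rose by 1.45. Irf4, the factor that cDC2s depend on, differed by -0.08 in wild type (adjusted p = 0.719) and by 0.31 between genotypes (adjusted p = 0.0609). Of 12 cDC1 markers, 5 fell and 3 rose with the extract, and between the genotypes 3 were higher and 3 lower. The cDC1 chemokine receptor gene Xcr1 differed by 0.05 in wild type and 0.34 between genotypes and did not pass, whereas the integrin gene Itgb8 rose by 1.97 and the adhesion gene Cadm1 fell by 0.88. Of 7 plasmacytoid markers, 3 rose in wild type, namely Bst2, Spib and Tcf4, the first of them also an interferon-induced gene, and Siglech, at -0.31, did not pass. In Irf3-deficient cells 2 of the 7, Bst2 and Spib, were lower than in treated wild type, and 1, Ccr9, was higher. Ccr9 stood between 6.59 and 6.91 on the wild type arrays and between 9.25 and 9.54 on the Irf3-deficient ones.

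The AP-1 list holds JUN genes, whose products pair with BATF proteins, and FOS genes, whose products compete for JUN. It also holds Atf3, Maff and Mafg. The IRF and STAT list holds IRF4 and IRF8, which bind beside BATF, and other factors of interferon and cytokine signalling. Of 10 AP-1 genes, 5 fell in wild type and 0 rose (median -0.40), with Fosl2 at -0.74, Fosb at -0.54 and Fos at -0.44, and Junb at -0.24 did not pass. In Irf3-deficient cells 4 of them were higher than in treated wild type and 0 lower (median 0.24), led by Fosl2 at 0.72, Fosb at 0.41 and Jun at 0.39. Of 9 measured IRF and STAT genes, 6 rose in wild type and 0 fell, and 5 rose after median centring or quantile normalisation. Without Irf3, 4 were lower and 0 higher (1 higher after quantile normalisation). Stat2 rose by 2.32, Irf8, the partner of BATF3 in cDC1s, by 1.61 and Irf1 by 1.01, and Stat2 and Irf8 were lower in Irf3-deficient cells at -1.92 and -1.19. Against untreated wild type 4 of these 9 were still higher (3 after median centring or quantile normalisation), with Stat5a at 0.59, Irf8 at 0.42 and Stat3 at 0.39.

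Relatives of the other members moved less uniformly. Of 7 genes for ID and E proteins, Tcf4, the E protein of plasmacytoid dendritic cells that ID2 opposes, rose by 0.38 in wild type (adjusted p = 0.0215 in limma), and Tcf12 fell by 0.44. After quantile normalisation of the arrays 0 of the 7 rose. Tcf12 was higher by 0.67 in Irf3-deficient cells (adjusted p = 0.000292), and Id1, Id3 and Id4 passed in neither comparison. Of 12 KLF and ZEB relatives, 4 fell and 2 rose with the extract, and 4 were higher and 0 lower without Irf3. Klf9 fell by 0.70 and Klf10 by 0.48, and both were higher in Irf3-deficient cells, by 1.02 and 0.50, whereas Klf6 rose by 0.51 and Klf2 was at -0.04.

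Of 10 ETS genes, 4 rose and 2 fell with the extract, and 3 were lower and 2 higher without Irf3. The PU.1 relatives Spic and Spib rose by 1.12 and 1.05 and were lower in Irf3-deficient cells at -0.72 and -1.23. Against untreated wild type, the comparison in which Spi1 passed, Spic was higher too, by 0.40. Fli1 fell by 1.11 and was higher by 0.82. Of 12 genes known to be activated by PU.1, 4 fell and 1 rose in wild type, and 5 were higher and 2 lower in Irf3-deficient cells. Csf1r, Fcgr1, Itgam, Itgax, Flt3 and Csf3r of this list are cell type markers too. The growth factor receptor gene Csf1r fell by 1.15 and was higher by 0.95, while Fcgr1, which encodes the gate marker CD64, rose by 1.79 and was lower at -1.67 without Irf3. In the comparison in which Spi1 passed, 1 of the 12 was higher, Csf2ra at 0.44, and 2 were lower, Ctss at -0.53 and Itgam at -0.34; median centring left 0 higher and 1 lower.

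Of 14 clock genes around Nfil3, Per1 alone fell in wild type cells, by 0.79, and Per1 and Per2 were higher by 0.76 and 0.52 without Irf3. The PAR zipper genes Dbp, Tef and Hlf lay between -0.14 and 0.08 in both comparisons. Of 6 measured corepressors and opponents of BCL6, 1 fell in wild type, Bach2 at -0.51, and 1 was higher without Irf3, Hdac3 at 0.32 (0 after median centring). Of 8 genes known to be repressed by BCL6 in B cells, 4 rose and 1 fell with the extract. Cxcl10 rose by 2.72, the cyclin gene Ccnd2 by 1.16 and the early activation gene Cd69 by 0.80, Cd44 fell by 0.48, and Prdm1 was at -0.0018. Several of these are also interferon-induced. Of 20 other myeloid factors, 7 fell and 1 rose, with Cebpa at -0.95, Myc at -0.80 and the NF-kB subunit Relb at 1.08, and 5 were higher and 1 lower without Irf3, with Mitf at 0.93, the NOTCH cofactor Rbpj at 0.63 and Relb at -0.97.

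**Figure D4:**
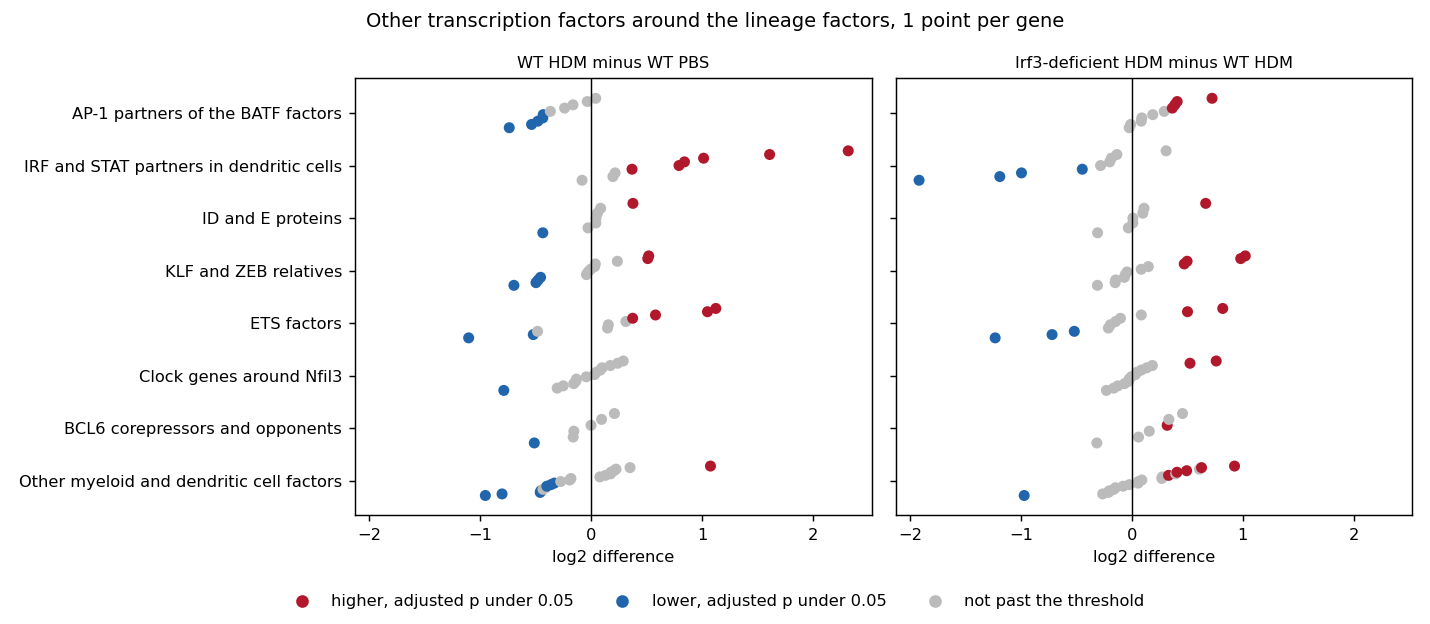
Log2 difference (horizontal axis) of 8 lists of other transcription factors and cofactors, 1 point per gene, for the wild type response (left) and for Irf3-deficient against wild type treated cells (right); red and blue mark genes past an adjusted p of 0.05. AP-1 genes lie mostly left of 0 in the first panel, and IRF and STAT genes reach 2.32, the value of Stat2.

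For each member that differed between the groups, the genes with the closest profile over the 7 arrays were found by Euclidean distance after each gene's own mean was removed, among 18252 genes. Batf2 lay closest to the mitochondrial carrier gene Slc25a22 (distance 0.38 log2 units) and to Tap2, the peptide transporter of MHC class I presentation (0.38). Zeb2 lay closest to Cpq and B4galt1 (0.15 and 0.16), Klf4 to Plxnb2 and Slc41a3 (both 0.075), Zbtb46 to Eipr1 and H2-Q2 (both 0.11) and Spi1 to Sap130 and Mllt1 (0.14 and 0.16). These genes were picked as the closest, so a small distance is no finding.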

How the data were processed

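The authors deposited log2 expression values of 35556 probesets on 7 arrays. R 3.2.1, oligo and RMA are named, without roles, per the submitters' processing notes. RMA usually includes quantile normalisation, which hides a shift shared by most genes. Genome build, detection calls and scan dates were not given in the sources used here, and the number of arrays limits the precision. Probesets with 1 symbol (21789) were kept, named through Entrez identifiers, and the brightest probeset of each of 19939 genes was used, with no filter. One mean per group was fitted in limma 3.58.1 under R 4.3.3 (lmFit, eBayes with intensity trend; 4 residual and 8.34 prior degrees of freedom). Tests were two-sided with Benjamini-Hochberg adjustment over all genes and a threshold of 0.05. The fit was tested on simulated data. "Rose", "fell", "higher" and "lower" without a p refer to calls past it. Members, 18 gene lists (186 of 197 genes measured) and alternatives were chosen with earlier results of these data known. Named genes are all members, up to 3 genes per list and direction with the smallest adjusted p, uncalled genes among a list's first 3, and the 2 closest profiles of each changed member. C1qb, Csf3r, Cd74 and Scgb1a1 were named after their values were seen. RefSeq sequences came from GRCm38.p6.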

Additional observations from a re-analysis of the deposited data

How the results depend on the processing

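Of 510 recomputed differences of the 10 members, 479 kept their direction and their side of the threshold, 14 no longer passed, 7 passed newly and 10 changed sign, the last all among differences that never passed. Much of this was fixed in advance. Every member had 1 probeset, so averaging probesets or taking the dimmest could not change its values. Changing the eBayes settings, filtering dim genes or leaving out arrays outside a comparison also kept the difference itself, and could move only its p-value. Leaving out each array in turn gave 2333 to 3725 genes for the wild type response (3505 with all arrays; 2333 without WT HDM replicate 2), 2562 to 3906 between the treated genotypes (3933; 2562 without the same array) and 749 to 2359 for Irf3-deficient against untreated wild type cells (2153; 749 without WT PBS replicate 1 and 1377 without Irf3 HDM replicate 2). The members called then numbered 2 to 5, 3 to 5 and 0 to 1, the lowest without WT HDM replicate 1, without either WT HDM replicate and without WT PBS replicate 1, and 4 to 5 in the F test. With the fit limited to the 11050 genes brighter than the median probeset, 4, 6 and 2 members passed in the 3 comparisons. Of those genes 3492, 4033 and 2328 passed. The added members were Batf3 and Spi1 in the second comparison and Batf in the third. Pool numbers gave no sign of pairing: deviations of pools numbered 1 correlated at -0.23, 0.18 and -0.03. With the replicate block 3118, 3249 and 1426 genes passed and 3, 3 and 1 members, Zbtb46 dropping out of the first count and Klf4 of the second. With the numbers of the WT HDM pools exchanged, chosen after seeing the data, 3505, 3631 and 1751 genes passed. Signs turned for Nfil3, at -0.13 to 0.081 in wild type, -0.038 to 0.078 between the genotypes (-0.021 with either replicate block) and -0.11 to 0.10 in the third comparison when single arrays were left out, and in that comparison for Id2 (-0.026 to 0.0013) and Bcl6 (-0.072 to 0.012). The cause was not tested. Median centring reduced the other myeloid factors that were higher in the third comparison from 4 to 0. Other list counts moved too. ETS genes that rose in wild type went from 4 to 3 with either scaling. AP-1 genes higher without Irf3 went from 4 to 3 after median centring, and those that fell in wild type from 5 to 7 after quantile normalisation. The latter also gave 9 cDC2 markers higher and 3 lower between the treated genotypes, from 7 and 2.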
